A study of Homo sapiens with 6 samples.

Results

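The NF-kB feedback genes and CXC chemokines described here were the 10 rows of the deposited gene table whose gene name was NFKBIA, TNFAIP3, RELB, NFKB2, BIRC3, CXCL1, CXCL2, CXCL3, CXCL8 or CCL20, out of 58735 genes in all. They were measured by RNA sequencing in HCT116SCs, which are CD44+CD326+ cells sorted with magnetic beads from the colorectal carcinoma line HCT116 and grown as tumor spheres. All cells were labelled WT and kept in serum-free DMEM/F12 with EGF and bFGF at 20 ng/mL each and B27. NC libraries (n = 3) came from cells given negative control siRNA, siPSCA libraries (n = 3) from cells given siRNA against PSCA, a surface protein of the Ly6 family, both by liposomal transfection and both harvested 48 h later. Which of the PSCA siRNAs was used was not given in the sources used here. The titles of siPSCA 2 and siPSCA 3 name HCT with another number, whereas every other label of these libraries names HCT116. The labels do not say that the 3 libraries of a group came from separate cultures, so p-values measure the spread between these libraries, which may be technical.

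NF-kB dimers are held in the cytoplasm by IkB proteins until receptors of the TNF, interleukin-1 and Toll-like families activate the IkB kinase, which marks IkB for destruction and frees the dimer to enter the nucleus. Among the genes it then switches on are its own brakes (NFKBIA, TNFAIP3), its own subunits (RELB, NFKB2), a survival factor and ubiquitin ligase of TNF receptor complexes (BIRC3), and chemokines that draw neutrophils (CXCL1, CXCL2, CXCL3, CXCL8) or lymphocytes and dendritic cells (CCL20). These transcripts are widely used as a readout of NF-kB activity, and in colorectal tumors the chemokines are made by epithelial and stromal cells alike.

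The 10 genes showed no common direction (the plot of levels in each library). CXCL8 rose in siPSCA, BIRC3 fell, and the other 5 genes that could be tested did not pass the threshold. Expression is given as FPKM, that is, fragments per kilobase of gene, scaled to the size of the library. A gene was tested where its mean FPKM over the 6 libraries was at least 1, with limma on log2(FPKM + 1) over 13796 genes and a threshold of 0.05 on the adjusted p. Of the 7 genes tested, 1 rose and 1 fell, or 28.6%, whereas 50.7% of all tested genes passed, 26.6% being higher and 24.2% lower. The groups did not overlap in 4 of the 7 (57.1%), against 64.5% of all tested genes. The median log2 fold change of the 7 was 0.08, beside 0.01 over all genes, and their median size without sign was 0.26, beside 0.30.

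**Figure D1:**
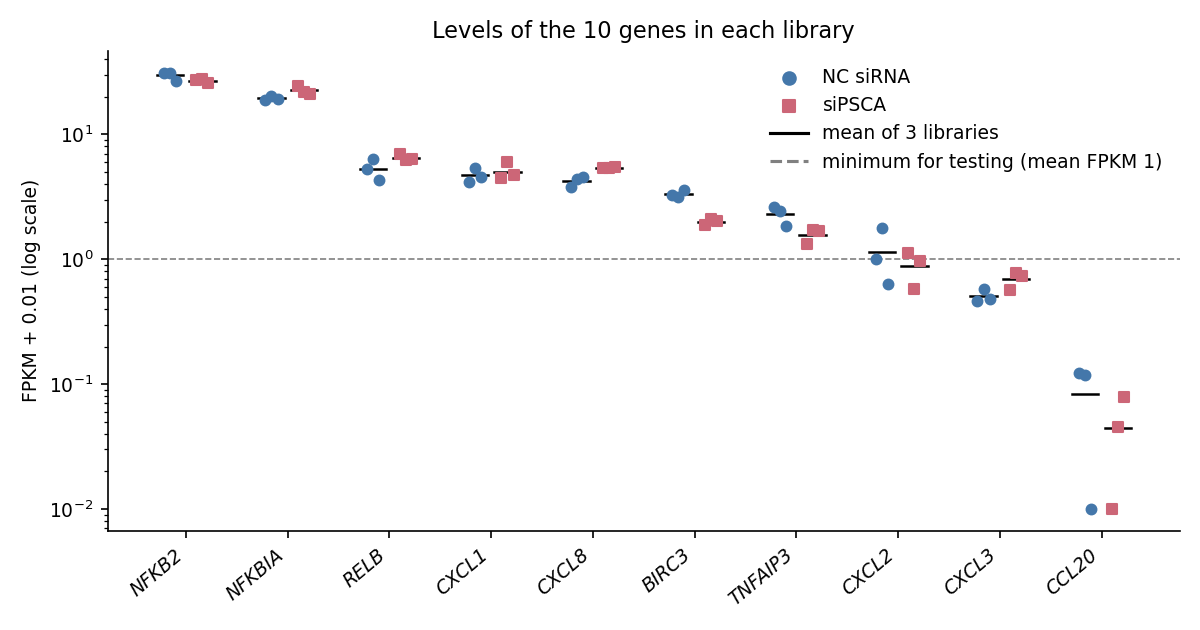
FPKM (log axis, with 0.01 added so that zeros can be drawn) of each of the 10 genes in the 3 NC libraries (circles) and the 3 siPSCA libraries (squares), with group means as bars; the dashed line is the minimum mean FPKM of 1. NFKB2 and NFKBIA lie highest in both groups, BIRC3 is lower and CXCL8 higher in every siPSCA library, and CCL20 lies near 0 throughout.

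On the FPKM scale, which corrects for gene length, the 10 genes spanned a wide range of levels. In NC the order of the means was NFKB2, NFKBIA, RELB, CXCL1, CXCL8, BIRC3, TNFAIP3, CXCL2, CXCL3 and CCL20, from 29.7 down to 0.0734. Neighbours in that order kept apart in every library except RELB and CXCL1, and CXCL1 and CXCL8, whose ranges overlapped. In siPSCA the order was the same but for CXCL8, which stood before CXCL1. There the neighbours with overlapping ranges were CXCL8 and CXCL1, and CXCL2 and CXCL3.

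Depth and the state of the libraries bear on each value below. Between 16099716 and 17302219 reads lay on genes per library, and 1 read on a gene of 1 kilobase was worth an FPKM of 0.0549 to 0.0595, set by library totals that include reads outside genes. NC 3 stood apart from NC 1 and NC 2, at a Euclidean distance of 45.8 to 48.1 over all tested genes, while those 2 were 31.5 from each other. Fold changes over all tested genes followed base composition, with a Spearman correlation of 0.664 between log2 fold change and GC content across 13792 genes, which are not independent replicates. The difference of NC 3 from the other NC libraries followed it too, with a correlation of −0.561. The log2 fold changes of the genes described here, CCL20 aside, are therefore given beside the median of tested genes whose GC content lay within 1 percentage point, and with the GC and length trend of each library removed; how far this trend and NC 3 account for a result was not tested beyond these values. PSCA itself had 31 reads in NC and 25 in siPSCA, that is 4, 12 and 15 by library in the former and 9, 9 and 7 in the latter. Its log2 fold change of −0.07 (SE 0.12, 95% interval −0.35 to 0.21, adjusted p = 0.728) did not pass, so the targeted transcript does not check the labels.

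NFKBIA encodes IkBα, the inhibitor that NF-kB resynthesizes to end its own response, and lies at chr14:35401511-35404749 on the minus strand of GRCh38. TNFAIP3 encodes a ubiquitin-editing enzyme that dismantles signalling complexes upstream of the IkB kinase, and lies at chr6:137867188-137883312 on the plus strand. Both promoters carry the kappa-B consensus, the decamer that NF-kB dimers bind, close to the transcription start. They are shown because these 2 inhibitors share that element, while their values differed in opposite directions between the groups, without passing the test. Sequences are from RefSeq promoters on GRCh38.p14, 5′ to 3′ on the strand of the gene. Starts are those of RefSeq and can lie inside the gene coordinates given here, which are those of the deposited gene table. The bases of each match on either strand are in capitals.
NFKBIA promoter, chr14:35404796-35404855, minus strand: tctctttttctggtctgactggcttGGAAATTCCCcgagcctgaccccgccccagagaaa
TNFAIP3 promoter, chr6:137867179-137867238, plus strand: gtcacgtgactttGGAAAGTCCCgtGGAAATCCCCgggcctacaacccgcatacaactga

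NFKBIA stood at 19.0, 20.4 and 19.1 FPKM in NC and at 24.5, 21.9 and 21.2 in siPSCA. Every siPSCA library lay above every NC library, the closest pair being NC 2 and siPSCA 3. The means were 19.5 ± 0.785 and 22.5 ± 1.76 (SD, n = 3), a log2 fold change of 0.20 (SE 0.07, 95% interval 0.03 to 0.36) that stopped short of the threshold (adjusted p = 0.0508). An exact permutation test gave p = 0.1, the smallest that 3 libraries against 3 allow. Genes of like GC content (53.1% for NFKBIA) had a median log2 fold change of 0.15, and with the GC and length trend removed that of NFKBIA was 0.02 (adjusted p = 0.777).

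TNFAIP3 was at 2.62, 2.42 and 1.83 FPKM in NC and at 1.31, 1.69 and 1.68 in siPSCA. The groups again did not overlap, with NC 3 only just above siPSCA 2. The means were 2.29 ± 0.411 and 1.56 ± 0.218 (SD, n = 3), and the log2 fold change was −0.36 (SE 0.12, 95% interval −0.66 to −0.05, adjusted p = 0.0532). Without NC 3 the adjusted p was 0.0133. Genes of like GC content (49.5%) had a median of 0.04, and with the trend removed TNFAIP3 was at −0.40 (adjusted p = 0.0432). An antisense gene, AL357060.1, shares 95 bases with TNFAIP3 exons, or 1.88% of its length, and whether counting used strand was not given in the sources used here.

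RELB, at chr19:45001430-45038198 on the plus strand, and NFKB2, at chr10:102394110-102402529 on the plus strand, encode the partners of the noncanonical NF-kB dimer, NFKB2 as a precursor that is cut to the active form. RELB was at 5.27, 6.32 and 4.30 FPKM in NC and at 6.89, 6.23 and 6.29 in siPSCA. NC 2 lay within the siPSCA range, and the other NC libraries lay below it. The means were 5.30 ± 1.01 and 6.47 ± 0.367 (SD, n = 3), a log2 fold change of 0.26 (SE 0.12, 95% interval −0.04 to 0.55, adjusted p = 0.120). Without NC 2 the adjusted p was 0.0327.

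NFKB2, the most abundant of the 10, was at 31.2, 31.2 and 26.8 FPKM in NC and at 27.0, 27.5 and 25.6 in siPSCA. NC 3 lay among the siPSCA libraries and the other 2 NC libraries lay above them. The means were 29.7 ± 2.52 and 26.7 ± 0.975 (SD, n = 3), with a log2 fold change of −0.15 (SE 0.07, 95% interval −0.32 to 0.03, adjusted p = 0.133). Without NC 3 the adjusted p was 0.00681. Both subunit genes are rich in GC (65.4% for RELB, 62.4% for NFKB2), and tested genes of like GC content had median log2 fold changes of 0.71 and 0.53. With the GC and length trend removed, RELB turned to −0.43 (adjusted p = 0.0174) and NFKB2 came to −0.69 (adjusted p = 0.00109). The direction of RELB thus depended on this correction. The 300 bases of the RefSeq NFKB2 promoter hold no exact match to the kappa-B consensus. This says nothing of sites that differ from the consensus or lie outside that window.

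BIRC3, at chr11:102317450-102339403 on the plus strand, was the only one of the 7 tested genes that was lower in siPSCA and passed the threshold. Its promoter carries 2 matches to the kappa-B consensus, of which the one nearer the start is shown, since BIRC3 had the log2 fold change farthest from 0 among these genes.
BIRC3 promoter, chr11:102317324-102317383, plus strand: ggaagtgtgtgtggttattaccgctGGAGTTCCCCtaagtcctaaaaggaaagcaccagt

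BIRC3 was at 3.27, 3.15 and 3.57 FPKM in NC and at 1.87, 2.09 and 2.00 in siPSCA, from 413, 412 and 463 reads and 238, 279 and 274 reads. All NC libraries lay well above all siPSCA libraries, and NC 3 was the highest. The means were 3.33 ± 0.220 and 1.99 ± 0.109 (SD, n = 3), a ratio of 0.597. The log2 fold change was −0.54 (SE 0.07, 95% interval −0.71 to −0.36, adjusted p = 0.00253), on a scale that understates the change of low genes because 1 is added to each FPKM. The exact permutation p was 0.1. BIRC3 is poor in GC (34.8%), and the 317 tested genes of like GC content had a median of −0.39, with the middle 50% from −0.60 to −0.17, a range that holds BIRC3. With the GC and length trend removed BIRC3 was at −0.08 (adjusted p = 0.30) and did not pass.

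**Figure D2:**
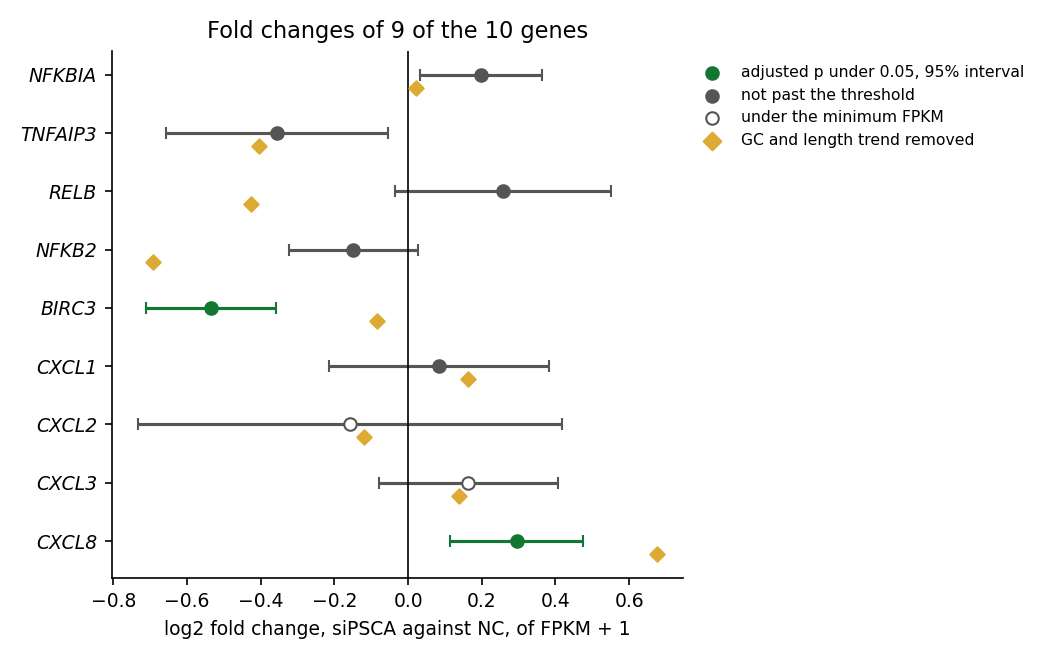
Log2 fold change of FPKM + 1, siPSCA against NC, of 9 of the 10 genes: circles with 95% intervals from limma (filled green where the adjusted p was under 0.05, open where the gene lay under the minimum FPKM), and diamonds for the value with the GC and length trend removed. BIRC3 moves from −0.54 to −0.08, RELB crosses from 0.26 to −0.43, NFKB2 moves from −0.15 to −0.69 and CXCL8 from 0.29 to 0.67; CCL20 has too few reads for a fold change.

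The 4 CXC chemokine genes lie close together on chromosome 4, CXCL8 at chr4:73740506-73743716 and CXCL1 at chr4:73869393-73871242 on the plus strand, CXCL3 at chr4:74036589-74038807 and CXCL2 at chr4:74097035-74099293 on the minus strand. All 4 proteins act on the neutrophil receptor CXCR2, and CXCL8 also on CXCR1. CXCL1, CXCL2 and CXCL3 are near copies of one another. Their promoters are shown because similar bases surround the same kappa-B match. It begins 79 (CXCL1, CXCL3) or 78 (CXCL2) bases before the RefSeq start and reads as a match on both strands.
CXCL1 promoter, chr4:73869290-73869349, plus strand: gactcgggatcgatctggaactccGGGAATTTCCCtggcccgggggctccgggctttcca
CXCL2 promoter, chr4:74099238-74099297, minus strand: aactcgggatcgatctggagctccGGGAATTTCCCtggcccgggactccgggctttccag
CXCL3 promoter, chr4:74038733-74038792, minus strand: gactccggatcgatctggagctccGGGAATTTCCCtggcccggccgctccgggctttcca
Over these 60 bases, compared without gaps, CXCL1 and CXCL3 share 56, CXCL1 and CXCL2 share 48, and CXCL2 and CXCL3 share 47. The CXCL8 promoter entry holds no exact match to the consensus in its 300 bases, which says nothing of sites that differ from the consensus. In all, 7 of the 9 promoters found for the 10 genes carried a match, against 10.8% of 27305 promoters and 13.2% of the 9098 whose gene reached the minimum FPKM. The genes were listed as NF-kB targets, so that share describes them and is no test, and a match is not a measured binding site.

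CXCL8 rose in siPSCA. It was at 3.74, 4.34 and 4.57 FPKM in NC, from 143, 172 and 179 reads, and at 5.35, 5.34 and 5.46 in siPSCA, from 206, 216 and 226 reads. The siPSCA libraries lay within a narrow band above all NC libraries, of which NC 1 was the lowest. The means were 4.22 ± 0.427 and 5.38 ± 0.0611 (SD, n = 3), a ratio of 1.28. The log2 fold change was 0.29 (SE 0.07, 95% interval 0.11 to 0.47, adjusted p = 0.0185), and the exact permutation p was 0.1. Leaving out any 1 siPSCA library left the value at 0.29 to 0.30 but ended the call, with an adjusted p of 0.0594 without siPSCA 1, 0.0607 without siPSCA 2 and 0.0594 without siPSCA 3.

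The rise of CXCL8 ran against base composition. Its GC content of 33.4% was the lowest of the 10 genes, and the 144 tested genes of like GC content had a median log2 fold change of −0.43, with the middle 50% from −0.67 to −0.18. With the GC and length trend removed CXCL8 was at 0.67 (adjusted p = 0.000596). The plot of fold change against base composition shows CXCL8 above the band of like genes, NFKB2, RELB and TNFAIP3 below it, and BIRC3, NFKBIA and CXCL1 to CXCL3 within it.

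CXCL1 was at 4.13, 5.36 and 4.52 FPKM in NC and at 4.42, 5.95 and 4.70 in siPSCA. The groups overlapped, and NC 2 and siPSCA 2 were the highest of their groups. The means were 4.67 ± 0.628 and 5.02 ± 0.812 (SD, n = 3), a log2 fold change of 0.08 (SE 0.12, 95% interval −0.21 to 0.38, adjusted p = 0.594). Without siPSCA 2 the value was −0.02, so these data give no direction for CXCL1. Genes of like GC content had a median of −0.09, and with the trend removed CXCL1 was at 0.16 (adjusted p = 0.313).

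CXCL2 and CXCL3 lay under the minimum FPKM, with means over the 6 libraries of 0.998 and 0.589, so their values come from the model refitted to all 34391 genes that had a read, of which 16.3% passed in either direction. None of the 3 genes under the minimum passed there. CXCL2 had 25, 46 and 16 reads in NC (0.992, 1.76 and 0.619 FPKM) and 28, 15 and 26 in siPSCA (1.10, 0.563 and 0.951 FPKM). The groups overlapped, and NC 2 alone lay above all siPSCA libraries. The log2 fold change was −0.16 (SE 0.23, 95% interval −0.73 to 0.42, adjusted p = 0.693), and without NC 2 it was 0.05. Genes of like GC content had a median of −0.07, and with the trend removed CXCL2 was at −0.12 (adjusted p = 0.749).

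CXCL3 had 17, 22 and 18 reads in NC (0.456, 0.569 and 0.471 FPKM) and 21, 30 and 29 in siPSCA (0.559, 0.761 and 0.717 FPKM). Only siPSCA 1 reached into the NC range. The log2 fold change was 0.16 (SE 0.10, 95% interval −0.08 to 0.41, adjusted p = 0.355), and the ratio of reads, scaled by library totals, was 1.36 (95% interval 0.960 to 1.95, counting error only). Genes of like GC content had a median of 0.07, and with the trend removed CXCL3 was at 0.14 (adjusted p = 0.390). Of the 50-base stretches of CXCL2 transcripts 12.5% also occur in another gene, of CXCL3 6.01% and of CXCL1 4.81%, mostly in one another. Reads from these 3 genes could therefore be split or lost by counting, and their values are less certain than that of CXCL8, which shares none.

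Summed over CXCL1, CXCL2, CXCL3 and CXCL8, the CXC chemokines came to 9.32, 12.0 and 10.2 FPKM in NC and to 11.4, 12.6 and 11.8 in siPSCA. NC 2 lay within the siPSCA range and the other NC libraries lay below it. The difference of the log2 sums was 0.19 (exact permutation p = 0.3, two-sided). With the trend removed it was 0.33, with an exact permutation p of 0.1, the smallest that 3 libraries against 3 allow. CXCL1 made up 38.7% to 47.1% of the sum and CXCL8 36.1% to 46.8%, so the total rested on those 2 genes.

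CCL20, the ligand of CCR6, was at the limit of detection. It had 3, 3 and 0 reads in NC and 0, 1 and 2 in siPSCA, or 0.112, 0.108 and 0 FPKM and 0, 0.0353 and 0.0689 FPKM. Both groups lay at or under the floor of 3 reads per library, and no fold change is given. Its promoter is shown because it holds a kappa-B match in much the same place as in CXCL1 to CXCL3, beginning 79 bases before the start, while its transcript was nearly absent.
CCL20 promoter, chr2:227813738-227813797, plus strand: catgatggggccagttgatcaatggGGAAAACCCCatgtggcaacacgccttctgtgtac

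Many of these transcripts are short-lived, since AU-rich elements in their 3′ UTR bind proteins that hasten or delay decay. In the longest 3′ UTR of 9 of the 10 genes in GENCODE 29, searched on the strand of the transcript with overlaps counted, the pentamer ATTTA occurred 13.9 times per kilobase in CXCL2, 10.4 in CXCL3, 7.19 in CXCL8 and 7.08 in CXCL1. It occurred 6.54 times per kilobase in NFKB2, 6.24 in CCL20 and 5.98 in NFKBIA. These rates rest on few copies, 1 in 153 bases for NFKB2, 3 in 481 for CCL20 and 3 in 502 for NFKBIA. TNFAIP3 with 1.27 and RELB with 0 lay below the median of 1.64 over the 11023 genes that reached a mean FPKM of 1. The longer form TTATTTATT, which contains the pentamer, occurred 5 times in CXCL2, 3 times in CXCL1 and once each in CXCL3, CXCL8 and TNFAIP3, and 9.24% of those 11023 genes hold it. The stretches with CXCL2 and CXCL8 are shown for the contrast between a run of overlapping copies and a single copy, in capitals (GENCODE 29, GRCh38, 5′ to 3′ on the strand of the gene).
CXCL2 3′ UTR, chr4:74097588-74097617, minus strand: gtcttctatTTATTTATTTATTTATTTATT
CXCL8 3′ UTR, chr4:73742653-73742682, plus strand: aacatacttatatgtaaagtaTTATTTATT

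By Euclidean distance between centred log2(FPKM + 1) values over the 6 libraries, the patterns most like that of NFKBIA were those of AC091729.3 (0.0349), MSRA (0.0559) and FANCC (0.0712), where the median distance of all tested genes was 0.552. Those most like CXCL8 were TUBG1 (0.0549), NIPSNAP3A (0.0644) and PARVA (0.0685), against a median of 0.615. CXCL2, CXCL3 and CCL20, under the minimum FPKM, were not in this comparison. With so few genes named out of 13796 tested, the absence of the others described here is no result.

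The rest of the pathway was read from lists of genes given by their role (the plot of tested genes of the lists). NFKBIB and NFKBIE, which encode further IkB proteins, rose, whereas the dimer subunits that were tested did not pass. In the list of NF-kB subunits and IkB proteins 2 of 7 tested genes rose and none fell, or 28.6%, where 26.6% of all tested genes were higher and 50.7% passed, with a median log2 fold change of 0.27. NFKBIB went from 9.75 ± 1.39 to 19.3 ± 1.63 FPKM (log2 fold change 0.92, SE 0.11, adjusted p = 0.00188) and still rose with the GC and length trend removed (0.47, adjusted p = 0.00101). NFKBIE had a log2 fold change of 0.45 (SE 0.15, adjusted p = 0.0475), and with the trend removed it was at −0.04. RELA, the main activating subunit, was at 16.4, 16.6 and 11.5 FPKM in NC and at 15.0, 13.9 and 14.1 in siPSCA, a log2 fold change of −0.03 (SE 0.14, adjusted p = 0.877), and at −0.35 with the trend removed (adjusted p = 0.0167). NFKB1, its usual partner, had a mean of 7.45 ± 0.954 in NC and 8.96 ± 0.338 in siPSCA and did not pass either (0.24, SE 0.09, adjusted p = 0.0619). REL, named after its values were seen, lay under the minimum FPKM. In the model over all genes with a read, of which 16.3% passed, REL fell from 841 to 438 reads (log2 fold change −0.46, SE 0.10, adjusted p = 0.0267). The GC content of REL is 38.7%, and tested genes in the bin at 39% had a median of −0.31. REL lay between the lower and upper quartiles of that bin, −0.49 and −0.12.

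Of 20 kinases and adaptors upstream, 8 rose, 6 fell and 6 did not pass, so that 70% passed where 50.7% of all tested genes did, with a median log2 fold change of 0.20, the quantity given in parentheses for each gene below. The 3 largest rises were SHARPIN (0.89, SE 0.20, adjusted p = 0.0122), TRADD (0.87, SE 0.15, adjusted p = 0.00484) and IRAK1 (0.85, SE 0.15, adjusted p = 0.00534), which act in linear ubiquitin, TNF receptor and interleukin-1 receptor complexes. With the trend removed SHARPIN was at 0.14 (adjusted p = 0.108) and TRADD at 0.21 (adjusted p = 0.0571), no longer past the threshold, and IRAK1 at 0.27 (adjusted p = 0.00285). The 3 largest falls were MAP3K7 (−0.63, SE 0.06, adjusted p = 0.00124), TAB2 (−0.58, SE 0.05, adjusted p = 0.000762) and BIRC2 (−0.50, SE 0.07, adjusted p = 0.00223), the TAK1 kinase, its adaptor and the near relative of BIRC3. With the trend removed they still passed, at −0.30, −0.31 and −0.21. Of the IkB kinase itself, the regulatory subunit IKBKG, uncertain because it has a near-identical pseudogene, rose from 1.80 ± 0.282 to 3.40 ± 0.537 FPKM (0.65, SE 0.12, adjusted p = 0.00695), but was at 0.09 with the trend removed. The catalytic subunits had log2 fold changes of −0.07 (CHUK, adjusted p = 0.312) and 0.08 (IKBKB, adjusted p = 0.468), and MAP3K14, the kinase of the noncanonical arm, 0.28 (adjusted p = 0.189). With the trend removed CHUK was at 0.33 (adjusted p = 0.00256) and MAP3K14 at −0.12.

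Among 14 receptors upstream 8 were tested, of which 4 rose and 1 fell (62.5%, against 50.7% of all tested genes), with a median of 0.33. TNFRSF12A, the receptor for TWEAK, went from 20.0 ± 8.52 to 42.9 ± 5.24 FPKM (1.16, SE 0.33, adjusted p = 0.0284), and LTBR and IL17RA rose by 0.74 (adjusted p = 0.00332) and 0.36 (adjusted p = 0.00453). With the trend removed LTBR alone of these 3 still passed (0.51, adjusted p = 0.00302), while TNFRSF12A was at 0.55 (adjusted p = 0.0634) and IL17RA at 0.16 (adjusted p = 0.0643). IL1R1, the signalling receptor for interleukin-1, went from 3.23 ± 0.452 to 1.94 ± 0.150 FPKM (−0.52, SE 0.10, adjusted p = 0.00690). Its coreceptor IL1RAP, named after its values were seen, lay under the minimum FPKM and fell from 753 to 165 reads (−0.84, SE 0.12, adjusted p = 0.00944 over all genes with a read, of which 16.3% passed). The GC content of IL1RAP is 41.7%, and tested genes in the bin at 41% had a median of −0.24.

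Of 12 other inhibitors 4 rose and 5 fell (75%, against 50.7% of all tested genes), with a median of −0.04. SPATA2 (0.47), TNIP2 (0.41) and TRAF3 (0.33) were the largest rises, and TAX1BP1 (−0.78), ITCH (−0.57) and TNIP1 (−0.31) the largest falls; with the trend removed TNIP2 was at −0.11 and TRAF3 at 0.14 (adjusted p = 0.0558), and the other 4 still passed. TNIP1, TNIP2, TAX1BP1 and ITCH bind the TNFAIP3 protein. Of 33 other target genes 15 were tested, of which 6 rose and 5 fell (73.3%), with a median of 0.05. PLAUR, the urokinase receptor, had the largest change, from 24.7 ± 0.970 to 10.1 ± 0.265 FPKM (−1.21, SE 0.05, adjusted p = 0.000125). TNFAIP8 (−0.91) and SDC4 (−0.80) were the next falls, and BCL2L1 (0.75), LIF (0.60) and TNFAIP2 (0.56) the largest rises. With the trend removed TNFAIP2 was at 0.03 (adjusted p = 0.690) and LIF at 0.28 (adjusted p = 0.0622), whereas PLAUR, TNFAIP8, SDC4 and BCL2L1 still passed.

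Of 17 other chemokines 2 were tested and 8, CXCL5 among them, had no read in any library. CXCL16, a membrane-bound chemokine, rose from 14.9 ± 0.290 to 17.9 ± 0.0746 FPKM (0.25, SE 0.04, adjusted p = 0.00523), but was at −0.03 with the trend removed. Of 8 chemokine receptors CXCR4 alone was tested, and it fell from 2.78 ± 0.471 to 1.32 ± 0.0789 FPKM (−0.70, SE 0.11, adjusted p = 0.00375). The receptors for the chemokines described here were barely read, CXCR1 with 3 reads in NC and 10 in siPSCA, CXCR2 with 2 and 9, and CCR6 with 7 and 2. All 7 genes of the list of proteins that bind AU-rich mRNA, or act on those that do, were tested, and 4 rose and none fell (57.1%, against 50.7% of all tested genes), with a median of 0.22. They included ZFP36, which hastens the decay of such mRNA (0.30, SE 0.10, adjusted p = 0.0463, −0.01 with the trend removed), ZFP36L2 (0.52, adjusted p = 0.0202) and KHSRP (0.65, adjusted p = 0.00374). The remaining rise was ELAVL1 (0.22, adjusted p = 0.0183). With the trend removed ZFP36L2 was at 0.28 (adjusted p = 0.0634), KHSRP at 0.24 (adjusted p = 0.00263) and ELAVL1 at 0.31 (adjusted p = 0.00309). In that fit 3 of the 7 genes were higher, HNRNPD among them, and 1, MAPKAPK2, was lower.

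Over these 8 lists 47 of 72 tested genes passed (65.3%), against 50.7% of all tested genes. Without siPSCA 1 the number was 31. Over all 13796 tested genes the calls also dropped then, from 3668 higher and 3333 lower to 2299 and 2328. With the GC and length trend removed 31 of the 72 passed. Of the 47, 21 still passed in the same direction and none passed in the other direction, and 10 further genes passed. Over all 13796 tested genes 2925 were higher and 2557 lower with the trend removed. The share of the lists then lay nearer to that of all tested genes than it did without the removal. In that fit the median of the NF-kB subunits and IkB proteins was −0.06, that of the receptors 0.06 and that of the kinases and adaptors 0.03.

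The cells carried epithelial markers in both groups. Of 10 listed, 8 had reads, EPCAM (CD326) among them at 107 FPKM in NC and 94.97 in siPSCA, while CDX1 and CEACAM5 had none and VIL1 had at most 5 reads in a library. Of the 7 tested, CDX2 (log2 fold change 0.70) and KRT8 (0.22) rose and CDH1 (−0.60) and CD44 (−0.44, adjusted p = 0.00193), with CD326 the marker of the sort, fell. Markers of other cell types that can make these chemokines were low. The 7 leukocyte markers summed to 0.367 to 0.511 FPKM in NC and 0.281 to 0.726 in siPSCA, with CD3E and CD68 at 0. The 6 fibroblast markers summed to 3.49 to 5.74 FPKM in NC and 6.17 to 6.74 in siPSCA, of which COL1A1, which did not pass the threshold, made up 3.35 to 5.62 and 5.95 to 6.51. COL1A1 is rich in GC (61.1%) and had a log2 fold change of 0.35, where tested genes in the bin at 61% had a median of 0.46. LUM had no read, and COL1A2 and DCN had at most 2 in a library. Of 4 endothelial markers none reached the minimum, with sums of 0.190 to 0.323 and 0.233 to 0.258 FPKM. The fibroblast sum, like CXCL8, was higher in every siPSCA library than in every NC library. Within NC, NC 1 had the highest sum and the lowest CXCL8. Any link between the fibroblast sum and CXCL8 was not tested. In bulk RNA, fewer cells that make a transcript and less transcript per cell cannot be told apart.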

How the data were processed

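RNA of 6 libraries was sequenced by the authors with the NEBNext Ultra kit, paired-end. The authors deposited 1 table of FPKM values per gene, made by them on GRCh38 per the labels; aligner, counting program and use of strand are not given in the sources used here. All 58735 gene IDs, starts and ends were those of GENCODE 29. The product of FPKM and gene length came to a whole number of reads (tolerance 0.01) for 100% of values, which gave back the reads of each gene (library totals 16803235 to 18218661). The interval of the read ratio of CXCL3 and the floor of 3 reads cover counting error only. Intervals of log2 fold changes come from limma and rest on the spread between libraries.

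Values were analysed with R 4.3.3, limma 3.58.1, Python 3.11.15, pandas 2.3.3, numpy 2.4.6, scipy 1.17.1 and matplotlib 3.10.9. limma (lmFit, eBayes with trend) was fitted to log2(FPKM + 1) with group as the only term, for genes whose mean FPKM reached 1, and p-values were adjusted by Benjamini and Hochberg over all genes tested, two-sided. For genes under the minimum the model was refitted to every gene that had a read. The GC and length trend was removed per library by loess (span 0.3). Tests were run on simulated data first. The genes and lists were chosen with earlier results of these data known, and no list was tested for enrichment. Named with values were the 10 genes, PSCA, and up to 3 largest rises and 3 largest falls per list. Those rises and falls were taken among genes past the threshold whose groups did not overlap. A further 11 genes were named whatever their call (RELA, NFKB1, IKBKB, IKBKG, CHUK, MAP3K14, CXCR1, CXCR2, CCR6, CXCL5, ZFP36). REL, IL1RAP and ELAVL1 were named after their values were seen. A promoter for RELB was not found in the table used, and a result on a 3′ UTR is not reported here. The alternatives were a pseudocount of 0.1, no minimum or a minimum FPKM of 5, TPM, median-of-ratios scaling, limma-voom on recovered reads, the trend removed, a replicate block, another call rule, and each library left out in turn.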

Additional observations from a re-analysis of the deposited data

How the results depend on the processing

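Over all tested genes, 3668 were higher and 3333 lower. The number higher was 2431 with the replicate block and the GC trend removed, 2027 by the rule of p under 0.05 before adjustment and a log2 fold change beyond 0.5 either way, and 2299 to 4014 with 1 library left out. The number lower was 2140 of the 7630 genes tested at a minimum FPKM of 5, and 2193, 1407 and 2328 to 3411 in the same order. Of the 10 genes, 1 was higher and 1 lower. The number higher was 2 by limma-voom, 0 by that rule and 0 to 2 with 1 library left out. The number lower was 0 at a minimum FPKM of 5, which leaves BIRC3 out, 3 by TPM, 2 by limma-voom, 3 with the GC trend removed, 2 with block and trend removal, and 1 to 3 with 1 library left out. The lists' 47 calls became 31 with the trend removed and 31 to 48 with 1 library left out. RELB reversed to −0.43 with the trend removed, with and without the block, CXCL1 to −0.023 without siPSCA 2 (range −0.023 to 0.17 with 1 library left out) and CXCL2 to 0.049 without NC 2 (range −0.34 to 0.049). The cause was not tested.

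Deviations of same-numbered libraries from their group means correlated at 0.0955, 0.0132 and 0.134, over 0.1 in 1 of 3 pairs, so the samples were taken to share only a number. With the replicate block 3572 genes were higher and 3153 lower, and among the 10 genes again 1 higher and 1 lower. NFKBIA passed at a minimum FPKM of 5 (adjusted p = 0.0413) and by limma-voom (0.0319), TNFAIP3 by TPM (0.0355) and limma-voom (0.0395), and NFKB2 by TPM (0.0438). BIRC3 passed under every alternative in which it was tested except the removal of the trend, with (adjusted p = 0.403) and without the block. The log2 sum of the CXC chemokines differed by 0.10 to 0.33 over its alternatives. The 3 libraries in each group limit the design, and CXCL2, CXCL3 and CCL20 are limited by reads.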
